A study of Mus musculus with 15 samples.

Results

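The genes described here are the ligands and receptors of axon guidance: the Eph receptors and their ephrin ligands, the semaphorins with their plexin and neuropilin receptors, the Slits with the Robo receptors, and the netrins with the Unc5 and Dcc receptors. They were chosen by a rule on gene symbols, made with earlier results of these data known. This gave 69 genes of the 23412 listed in the count files. The 69 are 14 Eph receptors, 8 ephrins, 20 semaphorins, 11 plexins and neuropilins, 7 Slits and Robos, and 9 netrins, Unc5 receptors and Dcc. Of these, 35 are ligands and 34 are receptors. Every one of the 69 had at least 1 count in some library, and 60 passed the expression filter and were tested.

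Guidance ligands steer migrating cells and growing axons by binding receptors on the cell surface, which change the cytoskeleton. Ephrins stay attached to the membrane, so Eph signalling needs contact between cells and runs in both directions. Secreted semaphorins bind neuropilins that work with plexins, membrane semaphorins bind plexins directly, Slits bind Robos, and netrin 1 attracts through Dcc or repels through Unc5 receptors. Embryonic stem cells have no axons, but Eph receptors and ephrins are known for their part in cell sorting and in the exit from pluripotency. Cohesin is the ring complex that holds DNA loops together, and each complex carries either STAG1 or STAG2.

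Polyadenylated RNA was sequenced from male mouse embryonic stem cells of the v6.5 line in 15 libraries, 3 replicates in each of 5 conditions. The conditions were wild-type siGLO, wild-type siStag1, Stag1-/- siGLO, Stag2-/- siGLO and Stag2-/- siStag1, where siGLO is a non-targeting control and siStag1 is an siRNA pool against Stag1. All cells thus received an siRNA, at 50 nM for 48 h, and each knockout genotype was 1 CRISPR/Cas9 clone, so an effect of the deletion and a property of that clone cannot be told apart. The study calls the replicates biological, and those of a knockout come from the same clone, so p-values measure the spread between these libraries.

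The libraries held 14982560 to 19070126 counts on genes (median 17700059). At that depth 3 counts, used here as the floor of detection, came to 2.71 to 3.5 normalized counts, which covers counting error only. Normalized counts are counts scaled by edgeR's TMM method to a common depth. Stag2 had 663 to 739 normalized counts in Stag2-/- siGLO against 2329 to 2334 in wild-type siGLO. Stag1 had 1826 to 2368 in Stag1-/- siGLO against 2012 to 2288 in wild-type siGLO, so its count does not check the label of that clone, which is described as carrying an in-frame deletion. For this clone the study reports Stag1 transcript at a normal level and no STAG1 protein that could be detected by western blot. After siStag1, Stag1 fell to 353 to 517.5 normalized counts in wild-type and 629 to 781 in Stag2-/- cells. Pluripotent cell markers such as Pou5f1, Sox2 and Nanog summed to 131900 to 138600 normalized counts in wild-type siGLO, and endoderm markers such as Gata4, Gata6 and Sox17 to 22970 to 24270.

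In wild-type siGLO cells the guidance genes covered a wide range of levels. To compare genes, normalized counts as CPM (a share of the library on a fixed scale) were divided by the length of the joined exons in kb. On this scale 6 of the 69 genes stood at 10 or more, 31 between 1 and 10, 16 between 0.1 and 1, and 16 below 0.1. The highest was Epha2, an ephrin-A receptor, at 39.9 ± 0.825 (SD, n = 3), followed by the plexins Plxna1 at 26.1 ± 2.64 and Plxnb2 at 25.8 ± 4.35. These plexins, receptors for semaphorins, did not differ from each other beyond their spread. Ephb4, the receptor best known for binding ephrin-B2, stood at 15.1 ± 1.77, the membrane semaphorin Sema4b at 13.7 ± 0.83 and the secreted ligand Ntn1 at 12.6 ± 1.82, and among these 3 neighbours in this order overlapped within their SD. All 8 ephrins lay between 1 and 10, whereas 6 of the 7 Slits and Robos were below 1, and Robo1 led these at 1.45 ± 0.0444. Among the netrin receptors Unc5b stood at 9.67 ± 0.742. The order and the classes depended on the length used. Per kb of the longest transcript Plxnb2 (30.7) stood above Plxna1 (26.2) and Sema4b (19.6) above Ephb4 (16.2). On that scale Sema4d, Ephb3 and Unc5b also passed 10, at 13.4, 12.6 and 10.3. Dcc had 14, 5 and 0 raw counts in wild-type siGLO replicates 1, 2 and 3 and none in Stag1-/- siGLO.

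**Figure D1:**
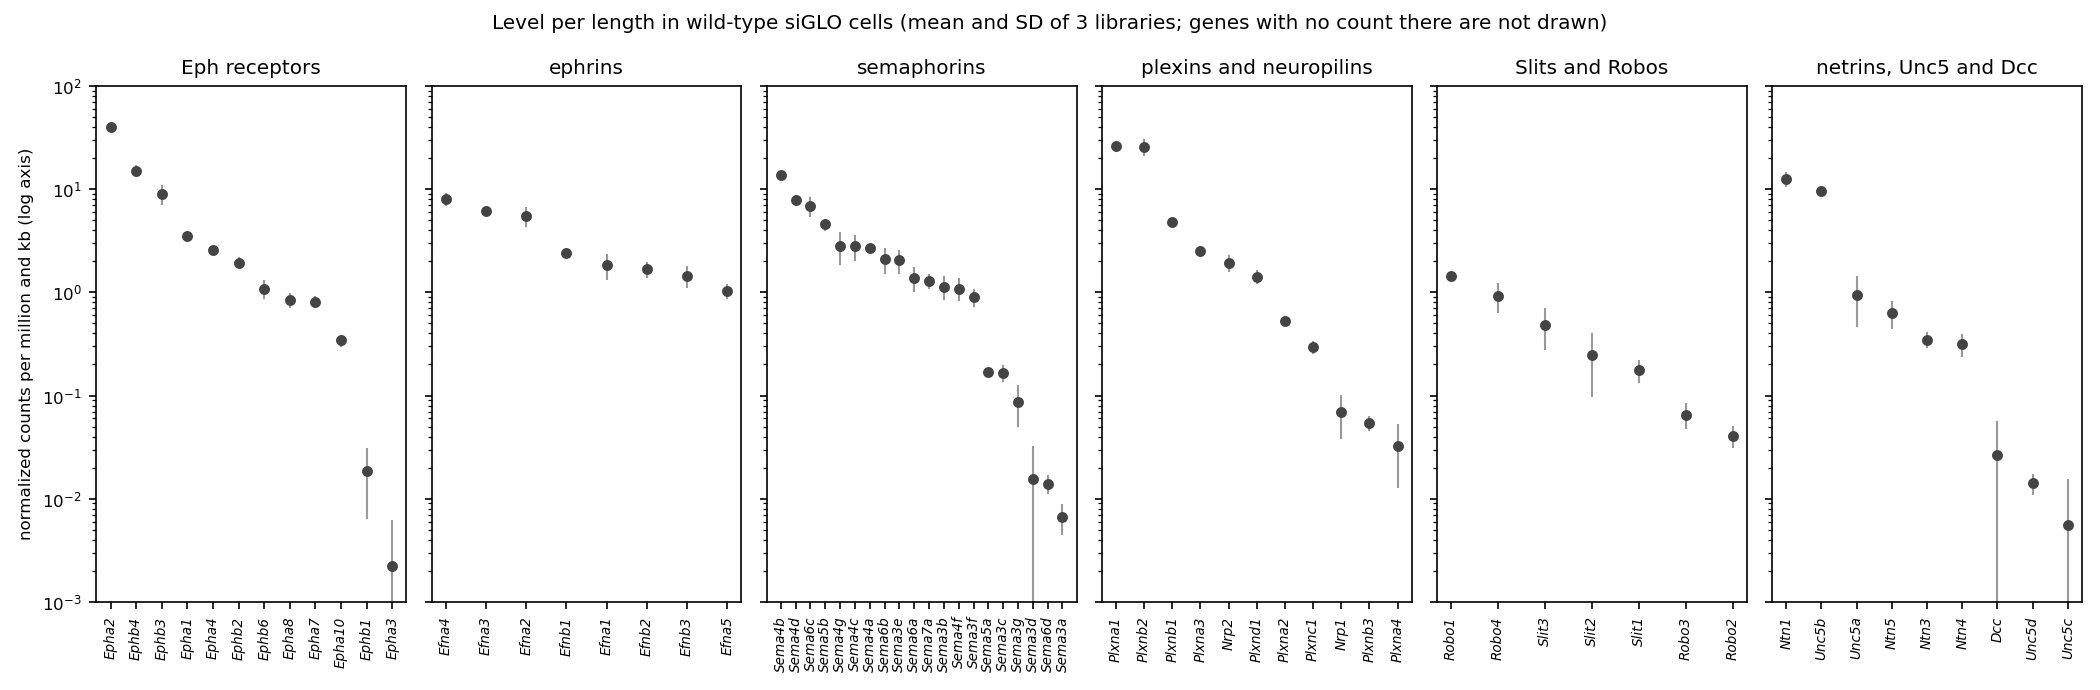
Level per length of each guidance gene in wild-type siGLO cells, by family, on a log axis of CPM per kb of joined exon. Points are means and lines SDs of 3 libraries, with lines that would reach 0 drawn to the foot of the axis, and Epha2 is highest at 39.9.

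The 9 genes that were not tested were Epha3, Epha5, Epha6, Ephb1, Sema3g, Plxnb3, Dcc, Unc5c and Unc5d, and none of them passed 23 raw counts in any library. Epha3 and Unc5c reached that number in Stag2-/- siStag1 replicate 3. Epha3 had 2, 13 and 23 raw counts in the Stag2-/- siStag1 libraries against 0, 1 and 0 in wild-type siGLO, and Unc5c had 7, 18 and 23 against 6, 0 and 0. Some genes passed the filter mainly through the Stag2-/- libraries: Sema3a, Sema3d and Sema6d had at most 5.08 normalized counts in any wild-type siGLO library, and Plxna4 at most 12.6. The counts that follow include such genes, describe the tested genes alone and are set beside the share over all 14508 genes tested.

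The main question was how these genes responded to the loss of either STAG protein and of both. A gene was called when its adjusted p was under 0.1 by edgeR's quasi-likelihood test with Benjamini-Hochberg adjustment over all 14508 genes. In Stag1-/- siGLO against wild-type siGLO, 20 of the 60 tested guidance genes (33.3%) were called, 15 higher and 5 lower. Over all genes tested 20.0% were called, 10.1% higher and 9.93% lower. In Stag2-/- siGLO 30 (50%) were called, 23 higher and 7 lower, against 28.3% of all genes, 13.9% higher and 14.4% lower. In Stag2-/- siStag1, which lacks STAG2 and is depleted of STAG1, 41 (68.3%) were called, 31 higher and 10 lower, against 43.9% of all genes, 22.6% higher and 21.3% lower. Counting just the 47 guidance genes with a mean of at least 50 normalized counts over all libraries, a limit chosen after seeing the data, 14 rose and 5 fell in Stag1-/- siGLO, 17 and 7 in Stag2-/- siGLO and 24 and 9 in Stag2-/- siStag1. Of the 11529 genes of all kinds above that limit, 11.0%, 14.2% and 22.3% rose and 9.84%, 15.4% and 22.6% fell. In wild-type siStag1 none was called, against 0.248% of all genes, 0.103% higher and 0.145% lower, and 6 of the 60 guidance genes had an unadjusted p under 0.05, against 6.36% of all genes. DESeq2 called 1 there, Efnb2, and the replicate block in edgeR gave 2, against 1.63% of all genes.

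The median log2 fold change of the 60 genes was 0.195 in Stag1-/- siGLO, 0.178 in Stag2-/- siGLO and 0.441 in Stag2-/- siStag1, where all genes had medians of -0.0125, 0.00701 and 0.00546. These comparisons share the wild-type siGLO libraries. The calls depended on single libraries: 13 genes were called in Stag1-/- siGLO without wild-type replicate 2, without wild-type replicate 3 or without Stag1-/- replicate 2, and 18 in Stag2-/- siGLO without wild-type replicate 2. With the replicate number as a block, 24, 37 and 44 genes were called in Stag1-/- siGLO, Stag2-/- siGLO and Stag2-/- siStag1, against 30.6%, 39.4% and 53.7% of all genes.

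**Figure D2:**
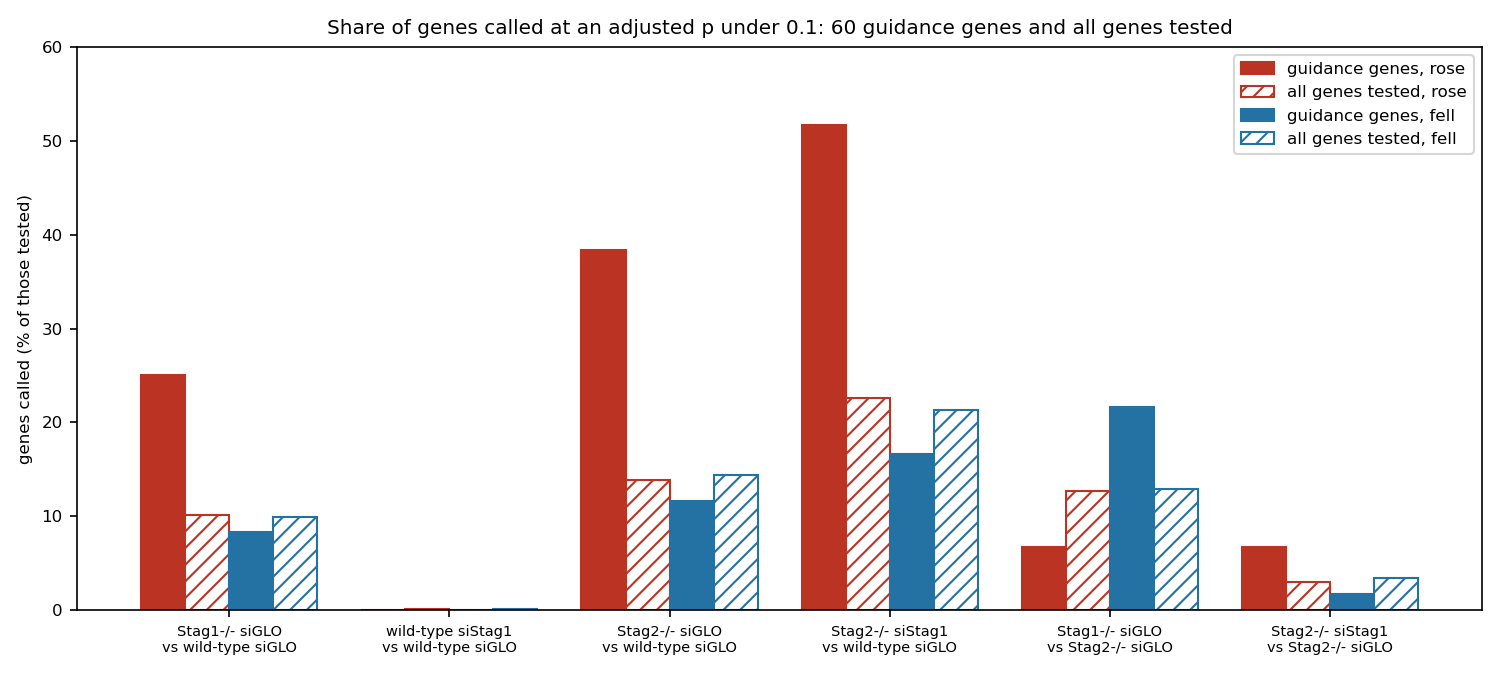
Percent of tested genes called at an adjusted p under 0.1 in each comparison, with filled bars for the 60 guidance genes, hatched bars for all 14508 genes, red for genes that rose and blue for genes that fell. In Stag2-/- siStag1 against wild-type siGLO 31 guidance genes rose and 10 fell, where 22.6% and 21.3% of all genes did.

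Cell type markers moved in the same comparisons. Of all genes tested, 20.0%, 28.3% and 43.9% were called in Stag1-/- siGLO, Stag2-/- siGLO and Stag2-/- siStag1. Of the 10 endoderm markers tested, 10 fell in Stag1-/- siGLO and 9 each in Stag2-/- siGLO and Stag2-/- siStag1, where their summed level was 4101 to 5243, 3824 to 6385 and 3381 to 5466 normalized counts. Of the 10 neural markers tested, 1 rose and 1 fell in Stag1-/- siGLO, 5 rose in Stag2-/- siGLO and 6 rose in Stag2-/- siStag1. Their sum was 2207 to 3062 in wild-type siGLO, 2535 to 2859 in Stag1-/- siGLO, 3456 to 5349 in Stag2-/- siGLO and 4462 to 7168 in Stag2-/- siStag1. All 12 pluripotent cell markers were tested, and 3 fell and 1 rose in Stag1-/- siGLO, 6 fell and 1 rose in Stag2-/- siGLO, and 9 fell and 1 rose in Stag2-/- siStag1, with a sum there of 79060 to 99900. Mesoderm and streak markers (9 tested) gave 1 rise in Stag1-/- siGLO, 3 rises and 1 fall in Stag2-/- siGLO, and 3 rises and 2 falls in Stag2-/- siStag1. Trophoblast markers (6 tested) gave 3 rises in Stag1-/- siGLO, 1 rise and 2 falls in Stag2-/- siGLO and 1 fall in Stag2-/- siStag1, and fibroblast markers (6 tested) gave 0 calls, 2 rises and 1 fall, and 2 rises. In Stag1-/- siGLO the neural (20%), mesoderm and streak (11.1%) and fibroblast (0%) shares did not exceed that of all genes. In Stag2-/- siStag1 the trophoblast (16.7%) and fibroblast (33.3%) shares did not either. In wild-type siStag1 1 of the 12 pluripotent cell markers fell (8.33%, against 0.248% of all genes), with a sum of 123100 to 127700. No marker of the other lists was called there. In bulk RNA, fewer cells of a type and less RNA per cell cannot be told apart, and the part of these shifts in the guidance gene results was not tested.

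Ephrins, the membrane-bound ligands of Eph receptors, were called mostly in the upward direction. Of the 8, 4 rose in Stag1-/- siGLO (50%, against 20.0% of all genes called), 5 rose and 1 fell in Stag2-/- siGLO (75%, against 28.3%), and 6 rose and 1 fell in Stag2-/- siStag1 (87.5%, against 43.9%). In Stag1-/- siGLO the block gave 5 higher and 1 lower, since Efnb1 (adjusted p = 0.0713) and Efna3, which fell (adjusted p = 0.0664), were then called as well. The median log2 fold change of the family was 0.647, 0.706 and 0.934 in these conditions.

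Efnb2 encodes ephrin-B2, a transmembrane ephrin best known from arterial and venous sorting (ENSMUSG00000001300.16, chr8:8617434-8661242, minus strand, mm10). Its promoter is shown because Efnb2 was among the largest rises, and it is set beside the other promoters further on. The 300 bases run from 250 before to 50 after the transcription start in RefSeq (GRCm38.p6), chr8:8661193-8661492 on the minus strand, with each CG dinucleotide in capitals.
Efnb2: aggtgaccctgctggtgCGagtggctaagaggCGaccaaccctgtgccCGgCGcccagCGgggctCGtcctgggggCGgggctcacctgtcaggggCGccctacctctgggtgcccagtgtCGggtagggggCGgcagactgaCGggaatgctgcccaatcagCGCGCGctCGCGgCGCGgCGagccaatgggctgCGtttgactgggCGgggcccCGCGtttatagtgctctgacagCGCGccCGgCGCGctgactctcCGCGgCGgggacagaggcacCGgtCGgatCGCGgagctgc

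Efnb2 had 236.5, 187 and 175 normalized counts in wild-type siGLO and 323, 326 and 341 in Stag1-/- siGLO. It had 504, 804 and 691.5 in Stag2-/- siGLO and 991, 893.5 and 1040 in Stag2-/- siStag1. Both knockouts lay above every wild-type siGLO library, and all 3 libraries of Stag2-/- siStag1 lay above every library of the other conditions. The log2 fold change against wild-type siGLO was 0.72 (SE 0.16, adjusted p = 0.00573) in Stag1-/- siGLO, 1.74 (SE 0.16, adjusted p = 3.39e-06) in Stag2-/- siGLO and 2.29 (SE 0.16, adjusted p = 4.75e-08) in Stag2-/- siStag1, by edgeR. Wild-type siStag1 had 367, 329 and 299 normalized counts, again above every wild-type siGLO library. This log2 fold change of 0.73 (SE 0.16) had an adjusted p of 0.107 in edgeR, 0.00534 in DESeq2 and 0.0421 in edgeR with the replicate block.

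The other ephrin-B genes also rose in both Stag2-/- conditions. Efnb1, an X-linked ephrin that drives cell sorting, had 141, 141 and 152 normalized counts in wild-type siGLO, 182, 386 and 392 in Stag2-/- siGLO and 173.5, 309 and 436 in Stag2-/- siStag1. Replicate 1 was the lowest library in both Stag2-/- conditions but still above wild-type siGLO. The log2 fold change was 1.14 (SE 0.29, adjusted p = 0.0105 by edgeR) in Stag2-/- siGLO and 1.08 (SE 0.29, adjusted p = 0.00759) in Stag2-/- siStag1. Efnb3 rose by 0.90 (SE 0.28, adjusted p = 0.0453) in Stag1-/- siGLO, 0.93 (SE 0.29, adjusted p = 0.0312) in Stag2-/- siGLO and 1.01 (SE 0.28, adjusted p = 0.011) in Stag2-/- siStag1 on the log2 scale. The first of these calls was lost without wild-type replicate 2 (adjusted p = 0.175) or Stag1-/- replicate 2 or 3 (0.109 and 0.102), and the second without wild-type replicate 2 or Stag2-/- replicate 3 (0.135 and 0.143).

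Of the ephrin-A genes, which encode lipid-anchored ligands, Efna2, Efna4 and Efna5 rose and Efna3 fell. Efna2 had 191, 171 and 250 normalized counts in wild-type siGLO and 369, 387 and 394 in Stag1-/- siGLO, with no overlap, and a log2 change of 0.91 (SE 0.18, adjusted p = 0.0025 by edgeR). In Stag2-/- siStag1 its log2 fold change was 0.86 (SE 0.18, adjusted p = 0.00145). In Stag2-/- siGLO its log2 fold change of 0.49 (SE 0.18, adjusted p = 0.0665) was called, but not without wild-type replicate 1 or 2 (adjusted p = 0.149 and 0.24) or Stag2-/- replicate 2 or 3 (0.137 and 0.244). In Stag1-/- siGLO Efna5 had 133, 118 and 107 normalized counts against 61.7, 81.3 and 73.6 in wild-type siGLO. The difference of 0.72 in log2 (SE 0.24, adjusted p = 0.0537 by edgeR) was called, but not without wild-type replicate 1 or 3 (adjusted p = 0.171 and 0.108) or Stag1-/- replicate 1 or 2 (0.169 and 0.102). Efna5 rose by 0.97 (SE 0.24, adjusted p = 0.00937) in Stag2-/- siGLO and 1.25 (SE 0.24, adjusted p = 0.000695) in Stag2-/- siStag1 on the log2 scale. Efna4 had 249, 232 and 194 normalized counts in wild-type siGLO and 278, 303 and 334 in Stag2-/- siStag1, with no overlap. Its log2 change was 0.44 (SE 0.16, adjusted p = 0.0388 by edgeR), not called without wild-type replicate 3 or Stag2-/- siStag1 replicate 3 (adjusted p = 0.152 and 0.13). A gene on the opposite strand overlaps 10.5% of its exons. Efna3, the ephrin with the most counts in wild-type cells, had 239, 267 and 270 normalized counts in wild-type siGLO and 118.5, 183 and 168 in Stag2-/- siGLO. Every Stag2-/- library was below every wild-type one, and the log2 fold change was -0.73 (SE 0.16, adjusted p = 0.00488 by edgeR). It was -0.74 (SE 0.16, adjusted p = 0.00199) in Stag2-/- siStag1. An antisense gene, Gm15998, overlaps 14.1% of the Efna3 exons, and the strand used for counting is not given in the sources used here.

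Of the 10 Eph receptors tested, 1 rose and 1 fell in Stag1-/- siGLO, 4 rose and 1 fell in Stag2-/- siGLO, and 6 rose in Stag2-/- siStag1. These are 20%, 50% and 60%, against 20.0%, 28.3% and 43.9% of all genes, so the share in Stag1-/- siGLO was that of the background. With the replicate block 6 rose and 2 fell in Stag2-/- siStag1, where 53.7% of all genes were called. Epha2, the most abundant of them, had 3170 to 3301 normalized counts in wild-type siGLO and 2723 to 4096 in Stag2-/- siGLO and was not called in any comparison. Wild-type siStag1, at 3890 to 4272, lay above every wild-type siGLO library (log2 0.32, adjusted p = 0.291 by edgeR with the replicate block). Epha1 had the largest rise of the Eph receptors tested (ENSMUSG00000029859.6, chr6:42358487-42373268, minus strand, mm10). It had 239, 263 and 223 normalized counts in wild-type siGLO, 453, 433 and 475 in Stag1-/- siGLO and 841, 819 and 466 in Stag2-/- siGLO. Wild-type siStag1, at 413, 457 and 391, also lay above wild-type siGLO in every library, but was not called (log2 0.80, adjusted p = 0.51 by edgeR and 0.119 with the block). The Stag2-/- siStag1 libraries spread widely, at 1558, 842.5 and 592, but all lay above both wild-type conditions. Its log2 fold change was 0.91 (SE 0.28, adjusted p = 0.0374), 1.55 (SE 0.28, adjusted p = 0.00106) and 2.04 (SE 0.28, adjusted p = 3.49e-05 by edgeR) in Stag1-/- siGLO, Stag2-/- siGLO and Stag2-/- siStag1. The first was not called without wild-type replicate 3 (adjusted p = 0.107). Epha1 shares 6.01% of its exon length with Zyx on the opposite strand.

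Epha4, a receptor that binds both classes of ephrin, fell in Stag1-/- siGLO (ENSMUSG00000026235.14, chr1:77367185-77515088, minus strand, mm10). It had 335, 362 and 380 normalized counts in wild-type siGLO and 116, 135 and 108 in Stag1-/- siGLO, 3-fold fewer by the ratio of means, with a log2 change of -1.58 (SE 0.34, adjusted p = 0.00537 by edgeR). Stag2-/- siGLO had 162, 389 and 292.5, overlapping wild type, with a log2 change of -0.35 (SE 0.33, adjusted p = 0.479). Stag2-/- siStag1 had 133, 297.5 and 465. Replicate 1 was the low library in both Stag2-/- conditions. Ephb3, an ephrin-B receptor, fell in Stag2-/- siGLO, from 816, 1059 and 1244 to 618, 681 and 765 normalized counts, with no overlap and a log2 change of -0.60 (SE 0.14, adjusted p = 0.00638 by edgeR). Ephb4 was called higher in Stag2-/- siGLO and Stag2-/- siStag1 by 0.34 and 0.32 on the log2 scale (SE 0.13 in both), calls that were each lost without wild-type replicate 1 (adjusted p = 0.205 and 0.214) or 2 (0.168 and 0.144), and without replicate 2 (0.221 and 0.159) or 3 (0.206 and 0.241) of the Stag2-/- condition.

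**Figure D3:**
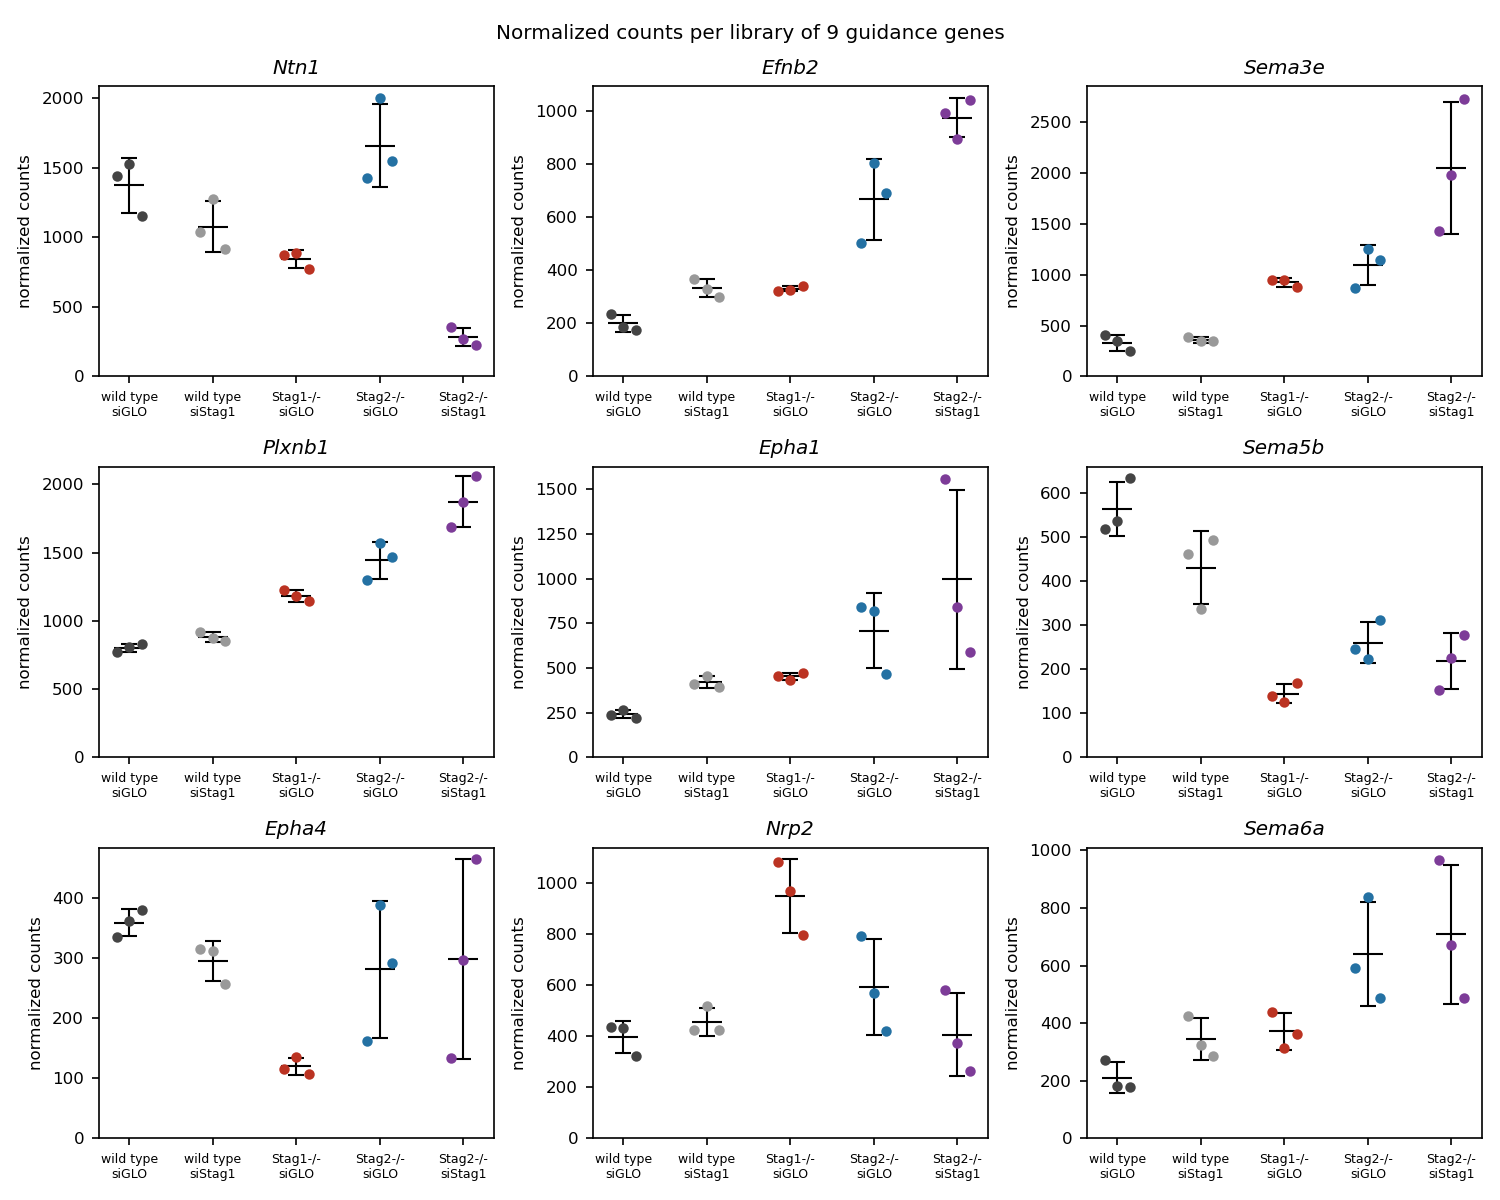
Normalized counts in each library for 9 guidance genes in the 5 conditions, with points for the 3 libraries and bars for their mean and SD, on axes that start at 0. Ntn1 is lowest in Stag2-/- siStag1 at 227 to 357, and Efnb2, Sema3e and Plxnb1 are highest there.

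Semaphorins, the largest family of ligands here, moved in both directions. Of the 19 tested, 5 rose and 3 fell in Stag1-/- siGLO, 8 rose and 3 fell in Stag2-/- siGLO, and 9 rose and 5 fell in Stag2-/- siStag1. These are 42.1%, 57.9% and 73.7%, against 20.0%, 28.3% and 43.9% of all genes. Of those with a mean of at least 50 normalized counts, 5 rose and 3 fell in Stag1-/- siGLO and 4 rose and 3 fell in Stag2-/- siGLO. In Stag2-/- siStag1 5 rose and 5 fell, so in this condition the larger number of rises was not seen without the low genes. The shares called were 53.3%, 46.7% and 66.7%, against 20.9%, 29.6% and 44.9% of all genes above that limit. Sema3e, a secreted ligand of plexin D1, was the gene with the largest rise in Stag1-/- siGLO and Stag2-/- siStag1 among those named by rule (ENSMUSG00000063531.7, chr5:14025276-14256689, plus strand, mm10). Its promoter is at chr5:14025026-14025325 on the plus strand (RefSeq, GRCm38.p6), with CG dinucleotides in capitals.
Sema3e: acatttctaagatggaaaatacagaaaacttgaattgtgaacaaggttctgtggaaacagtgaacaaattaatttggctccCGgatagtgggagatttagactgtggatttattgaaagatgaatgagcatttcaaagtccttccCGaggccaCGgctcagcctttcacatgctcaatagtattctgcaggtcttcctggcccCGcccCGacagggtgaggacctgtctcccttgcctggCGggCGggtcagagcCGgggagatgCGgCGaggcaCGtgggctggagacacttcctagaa

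Sema3e had 402, 344 and 246 normalized counts in wild-type siGLO and 392, 343 and 345 in wild-type siStag1. It had 946, 949 and 878 in Stag1-/- siGLO, 872, 1253 and 1150 in Stag2-/- siGLO, and 1434, 1984 and 2734 in Stag2-/- siStag1. The wild-type conditions overlapped each other, both knockouts lay above them and overlapped each other, and Stag2-/- siStag1 lay above all. The ratio of means against wild-type siGLO was 2.8, 3.3 and 6.21 in Stag1-/- siGLO, Stag2-/- siGLO and Stag2-/- siStag1. The log2 fold change was 1.48 (SE 0.21, adjusted p = 0.000169), 1.72 (SE 0.21, adjusted p = 4.06e-05) and 2.63 (SE 0.21, adjusted p = 1.85e-07 by edgeR). Plxnd1, the gene of its receptor, had 152 to 198 normalized counts in wild-type siGLO and was not called in any comparison with it.

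Sema6a and Sema5a, transmembrane semaphorins, also rose. Sema6a had 273, 182 and 178 normalized counts in wild-type siGLO, 590, 838 and 488 in Stag2-/- siGLO and 968, 670 and 487 in Stag2-/- siStag1, with no overlap with wild type. Its log2 fold change was 1.59 (SE 0.26, adjusted p = 0.000531 by edgeR) in Stag2-/- siGLO and 1.75 (SE 0.26, adjusted p = 8.46e-05) in Stag2-/- siStag1. In Stag1-/- siGLO it was 0.82 (SE 0.26, adjusted p = 0.0462), a call lost without wild-type replicate 2 or 3 (adjusted p = 0.161 and 0.146) or Stag1-/- replicate 1 (0.176). In wild-type siStag1 it was 0.70 (SE 0.26) with an adjusted p of 0.572, and 0.099 with the replicate block. Sema5a had 51.3 to 58 normalized counts in wild-type siGLO, 87.8 to 116 in Stag2-/- siGLO and 128 to 160 in Stag2-/- siStag1, and its log2 fold change was 0.91 (SE 0.20, adjusted p = 0.00441) and 1.40 (SE 0.20, adjusted p = 4.81e-05 by edgeR). Sema3f, a ligand of neuropilin 2, had 68.2 to 95.8 normalized counts in wild-type siGLO and 147 to 158 in Stag1-/- siGLO, with a log2 change of 0.93 (SE 0.25, adjusted p = 0.0216 by edgeR). Sema6c, another transmembrane member, had 601, 658 and 870 normalized counts in wild-type siGLO, 548, 492 and 548 in Stag1-/- siGLO and 428, 527 and 563 in Stag2-/- siStag1, below wild type in every library. It fell by 0.42 (SE 0.15, adjusted p = 0.0786) in Stag1-/- siGLO, a call lost without any 1 of these libraries other than wild-type replicate 1, and with a value of -0.25 (adjusted p = 0.332) without wild-type replicate 3. The log2 change in Stag2-/- siStag1 was -0.49 (SE 0.15, adjusted p = 0.0208 by edgeR), not called without wild-type replicate 3 (-0.32, adjusted p = 0.13).

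Sema5b had the largest fall of the semaphorins named by rule (ENSMUSG00000052133.16, chr16:35541145-35664732, plus strand, mm10). It is a transmembrane semaphorin, and its promoter is given for contrast with the genes that rose, at chr16:35541112-35541411 on the plus strand (RefSeq, GRCm38.p6), with CG dinucleotides in capitals.
Sema5b: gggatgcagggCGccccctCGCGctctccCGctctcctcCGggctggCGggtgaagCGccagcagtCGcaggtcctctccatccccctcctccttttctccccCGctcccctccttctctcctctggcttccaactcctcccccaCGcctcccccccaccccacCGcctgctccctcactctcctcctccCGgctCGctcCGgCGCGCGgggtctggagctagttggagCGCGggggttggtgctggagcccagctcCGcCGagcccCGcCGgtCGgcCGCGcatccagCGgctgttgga

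Sema5b had 519, 536 and 633 normalized counts in wild-type siGLO, 139, 127 and 168 in Stag1-/- siGLO, 246.5, 222 and 311.5 in Stag2-/- siGLO and 153, 225 and 278 in Stag2-/- siStag1. Every library of these 3 conditions lay below every wild-type library, and Stag1-/- siGLO lay below Stag2-/- siGLO. Its log2 fold change was -1.96 (SE 0.21, adjusted p = 1.38e-05) in Stag1-/- siGLO, -1.11 (SE 0.20, adjusted p = 0.0012) in Stag2-/- siGLO and -1.36 (SE 0.20, adjusted p = 8.46e-05 by edgeR) in Stag2-/- siStag1. Sema4a had 252 to 255.5 normalized counts in wild-type siGLO and 121 to 174 in Stag1-/- siGLO, and its log2 fold change there was -0.77 (SE 0.16, adjusted p = 0.00331 by edgeR). It was -0.47 (SE 0.15, adjusted p = 0.0244) in Stag2-/- siStag1. In Stag2-/- siGLO it was -0.40 (SE 0.15, adjusted p = 0.0781), a call lost without any 1 of the wild-type replicates 1, 2 and 3 (adjusted p = 0.122, 0.167 and 0.155) or Stag2-/- replicates 2 and 3 (0.268 and 0.111). Sema4g fell in Stag2-/- siStag1, with a log2 change of -0.85 (SE 0.23, adjusted p = 0.00827 by edgeR). In Stag2-/- siGLO its log2 fold change of -0.81 (SE 0.23, adjusted p = 0.0196) was not called without wild-type replicate 3 (-0.52, adjusted p = 0.126).

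At the low end of the family, Sema3a, a secreted repellent of the neuropilin 1 pathway, had no count in any Stag1-/- siGLO library and 1.87, 1.02 and 1.94 normalized counts in wild-type siGLO. It had 3.17, 11.8 and 10.6 in Stag2-/- siGLO and 2.96, 17.7 and 9.1 in Stag2-/- siStag1. Wild type and Stag1-/- were at or under 3 counts in these libraries, so no fold is given.

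Sema4b and Sema4d, membrane semaphorins, had the most counts of the family in wild-type cells, and their calls were small and fragile. Sema4b had 1271 to 1434 normalized counts in wild-type siGLO, 1478 to 1957 in Stag1-/- siGLO and 1119 to 1163 in Stag2-/- siStag1, with no overlap. Its log2 fold change of 0.35 (SE 0.10, adjusted p = 0.0356 by edgeR) in Stag1-/- siGLO was not called without wild-type replicate 2 or 3 (adjusted p = 0.101 and 0.115) or Stag1-/- replicate 1 (0.173). That of -0.23 (SE 0.10, adjusted p = 0.093) in Stag2-/- siStag1 was not called without wild-type replicate 1 or 2 (0.232 and 0.165) or any 1 of the Stag2-/- siStag1 replicates 1, 2 and 3 (0.13, 0.151 and 0.197). Sema4d had 926.5, 1053 and 1155 normalized counts in wild-type siGLO and 1408, 1198 and 1204 in Stag2-/- siGLO. Its log2 fold change of 0.28 (SE 0.11, adjusted p = 0.0765 by edgeR) was not called without wild-type replicate 1 or 2 (0.236 and 0.163) or Stag2-/- replicate 1 (0.25).

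Among the plexins and neuropilins, which receive semaphorins, 3 of the 10 tested rose in Stag1-/- siGLO, 3 rose and 1 fell in Stag2-/- siGLO, and 5 rose and 1 fell in Stag2-/- siStag1. These are 30%, 40% and 60%, against 20.0%, 28.3% and 43.9% of all genes, and with the replicate block 5 rose and 2 fell in Stag2-/- siGLO. Of the 8 with a mean of at least 50 normalized counts, which leaves out Plxna4 and Nrp1, 2 rose and 1 fell in Stag2-/- siGLO and 4 rose and 1 fell in Stag2-/- siStag1. These are 37.5% and 62.5%, against 29.6% and 44.9% of all genes above that limit. In Stag2-/- siGLO Plxnb2 was called with the block (-0.35, adjusted p = 0.0149) and not without it (-0.34, adjusted p = 0.154). Plxnb1 encodes plexin B1, the receptor of Sema4d (ENSMUSG00000053646.13, chr9:109095389-109119917, plus strand, mm10). Its promoter is shown because the libraries of Plxnb1 were ordered by condition without overlap. It lies at chr9:109095186-109095485 on the plus strand (RefSeq, GRCm38.p6), with CG dinucleotides in capitals.
Plxnb1: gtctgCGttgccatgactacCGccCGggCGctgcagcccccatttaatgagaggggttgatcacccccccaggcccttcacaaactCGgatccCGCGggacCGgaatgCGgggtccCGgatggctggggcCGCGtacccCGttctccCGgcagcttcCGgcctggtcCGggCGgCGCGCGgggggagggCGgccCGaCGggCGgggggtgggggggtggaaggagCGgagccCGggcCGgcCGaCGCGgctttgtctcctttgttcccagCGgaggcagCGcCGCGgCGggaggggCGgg

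Plxnb1 had 770, 806 and 827.5 normalized counts in wild-type siGLO and 919.5, 871 and 852 in wild-type siStag1. It had 1229, 1179 and 1144 in Stag1-/- siGLO, 1300, 1568 and 1465 in Stag2-/- siGLO and 1686, 1872 and 2062 in Stag2-/- siStag1. The 5 conditions did not overlap, in this order. The log2 fold change was 0.56 (SE 0.09, adjusted p = 0.000575) in Stag1-/- siGLO, 0.85 (SE 0.09, adjusted p = 1.4e-05) in Stag2-/- siGLO and 1.23 (SE 0.09, adjusted p = 8.63e-08 by edgeR) in Stag2-/- siStag1.

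The promoters of Efnb2, Plxnb1 and Sema5b were rich in CG, with 35, 36 and 27 CG dinucleotides in 300 bases, while the Sema3e promoter had 11. RefSeq promoters were found for 59 of the 69 genes. The 75 promoters of these genes had a median of 19 CG dinucleotides, against 7 over all 32851 promoters, and 6.95%, 6.23%, 15.5% and 41.4% of all promoters had at least as many as Efnb2, Plxnb1, Sema5b and Sema3e. The count of Sema5b, which fell, lay between those of genes that rose.

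Nrp2 encodes neuropilin 2, the co-receptor of Sema3f (ENSMUSG00000025969.15, chr1:62703285-62818695, plus strand, mm10). It had 435, 432 and 323 normalized counts in wild-type siGLO and 1083, 970 and 795.5 in Stag1-/- siGLO, 2.39-fold more by the ratio of means and without overlap, with a log2 change of 1.26 (SE 0.25, adjusted p = 0.00266 by edgeR). In Stag2-/- siGLO it had 791, 568 and 420, and its log2 fold change of 0.58 (SE 0.25) had an adjusted p of 0.109, or 0.0124 with the replicate block, and was called without Stag2-/- replicate 3 (0.78, adjusted p = 0.0459). Stag2-/- siStag1 had 581.5, 373 and 264, overlapping wild type. Plxnc1, the receptor of Sema7a, had 36.6 to 46.5 normalized counts in wild-type siGLO, 75.1 to 96.1 in Stag2-/- siGLO and 70 to 115 in Stag2-/- siStag1, with log2 fold changes of 0.99 (SE 0.26, adjusted p = 0.0149) and 1.12 (SE 0.26, adjusted p = 0.00347 by edgeR). Plxna2 had 150 to 173 normalized counts in wild-type siGLO, 147 to 209 in Stag2-/- siGLO, and 236, 230 and 393 in Stag2-/- siStag1, and rose in the last, with a log2 change of 0.85 (SE 0.21, adjusted p = 0.00502 by edgeR).

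Plxna1, a neuropilin partner and the plexin with the most counts, was called in opposite directions in the knockouts. It had 3683, 4162 and 4512 normalized counts in wild-type siGLO, 5229, 5007 and 4334 in Stag1-/- siGLO and 3603, 3522 and 3534 in Stag2-/- siGLO. Stag1-/- siGLO overlapped wild type and Stag2-/- siGLO did not. The log2 fold change of 0.24 (SE 0.09, adjusted p = 0.0859 by edgeR) in Stag1-/- siGLO was not called without wild-type replicate 1 or 2 (adjusted p = 0.301 and 0.172) or Stag1-/- replicate 1 or 2 (0.278 and 0.188). That of -0.21 (SE 0.09, adjusted p = 0.099) in Stag2-/- siGLO was not called without wild-type replicate 2 or 3 (0.215 and 0.342) or any 1 of Stag2-/- replicates 1, 2 and 3 (0.141, 0.198 and 0.181). Gm26811, on the opposite strand, overlaps 10.7% of the Plxna1 exons.

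Of the 7 Slits and Robos tested, none was called in Stag1-/- siGLO, against 20.0% of all genes. In Stag2-/- siGLO 1 rose and 1 fell (28.6%, near the 28.3% of all genes), and the replicate block called Slit2 higher as well (adjusted p = 0.0174). With both proteins affected, in Stag2-/- siStag1, 3 rose and 1 fell (57.1%, against 43.9%). Robo1, a Slit receptor and the most abundant of the family, had 425, 403 and 424 normalized counts in wild-type siGLO, 405 to 461 in Stag1-/- siGLO, 431 to 459 in Stag2-/- siGLO and 497, 543 and 661 in Stag2-/- siStag1. The libraries of both Stag2-/- conditions lay above every wild-type siGLO library. Those of Stag2-/- siGLO did so by little and overlapped wild-type siStag1, at 373 to 446, and Robo1 was not called in Stag2-/- siGLO. In Stag2-/- siStag1 the log2 fold change was 0.44 (SE 0.12, adjusted p = 0.00701 by edgeR). Slit2, a secreted Robo ligand, had 68.2, 74.2 and 185 in wild-type siGLO and 152, 214 and 308 in Stag2-/- siStag1. These overlapped, and the log2 fold change of 1.04 (SE 0.38, adjusted p = 0.0427 by edgeR) was not called without wild-type replicate 1 or 2 (adjusted p = 0.154 and 0.164) or Stag2-/- siStag1 replicate 3 (0.185). Robo4, the endothelial member, had 107, 90.5 and 57.1 normalized counts in wild-type siGLO against 70.9, 34.5 and 22.2 in Stag2-/- siGLO and 55.2, 29.1 and 39.4 in Stag2-/- siStag1. The log2 fold changes of -0.99 (SE 0.38, adjusted p = 0.0754) and -1.03 (SE 0.38, adjusted p = 0.0427 by edgeR) were both lost without wild-type replicate 1 (adjusted p = 0.2 and 0.141) or 2 (0.175 and 0.103), and without replicate 2 (0.204 and 0.15) or 3 (0.234 and 0.101) of the Stag2-/- condition. Slit3, another Robo ligand, was called higher in Stag2-/- siGLO, where its libraries overlapped wild type at 41.3, 144 and 158 normalized counts against 63.6, 26.4 and 62.9.

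Of the 6 netrins and Unc5 receptors tested, 2 rose and 1 fell in Stag1-/- siGLO, 2 rose in Stag2-/- siGLO, and 2 rose and 2 fell in Stag2-/- siStag1. These are 50%, 33.3% and 66.7%, against 20.0%, 28.3% and 43.9% of all genes, but 3 of the 6 had a mean under 50 normalized counts. With the replicate block 3 rose and 1 fell in Stag2-/- siGLO, where 39.4% of all genes were called. Unc5b, a netrin receptor, had 968, 1128 and 1066 normalized counts in wild-type siGLO, 1722, 2113 and 1371 in Stag2-/- siGLO and 2326, 2096 and 1609 in Stag2-/- siStag1, above wild type in every library. Its log2 fold change was 0.72 (SE 0.15, adjusted p = 0.00367) and 0.93 (SE 0.15, adjusted p = 0.000195 by edgeR). In Stag1-/- siGLO it was 0.48 (SE 0.15, adjusted p = 0.045), not called without wild-type replicate 1 (adjusted p = 0.146) or Stag1-/- replicate 1 or 2 (0.172 and 0.105).

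Ntn1 encodes netrin 1, the secreted ligand of Dcc and the Unc5 receptors (ENSMUSG00000020902.12, chr11:68209364-68400823, minus strand, mm10). It had 1444, 1530 and 1151 normalized counts in wild-type siGLO and 1040, 1275 and 913 in wild-type siStag1. It had 872, 886 and 772 in Stag1-/- siGLO, 1429, 1999 and 1549 in Stag2-/- siGLO, and 357, 266 and 227 in Stag2-/- siStag1. Stag2-/- siStag1 lay below every other library, Stag1-/- siGLO lay below both wild-type conditions, and Stag2-/- siGLO overlapped wild-type siGLO. The log2 fold change against wild-type siGLO was -0.71 (SE 0.17, adjusted p = 0.00919) in Stag1-/- siGLO and -2.28 (SE 0.18, adjusted p = 1.39e-07 by edgeR) in Stag2-/- siStag1. It was 0.27 (SE 0.16, adjusted p = 0.26) in Stag2-/- siGLO, with a 95% interval of -0.0757 to 0.617, and 0.0813 was the adjusted p with the replicate block. In wild-type siStag1 it was -0.35 (SE 0.16, adjusted p = 0.782), with a 95% interval of -0.702 to -0.00487 for this gene alone.

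**Figure D4:**
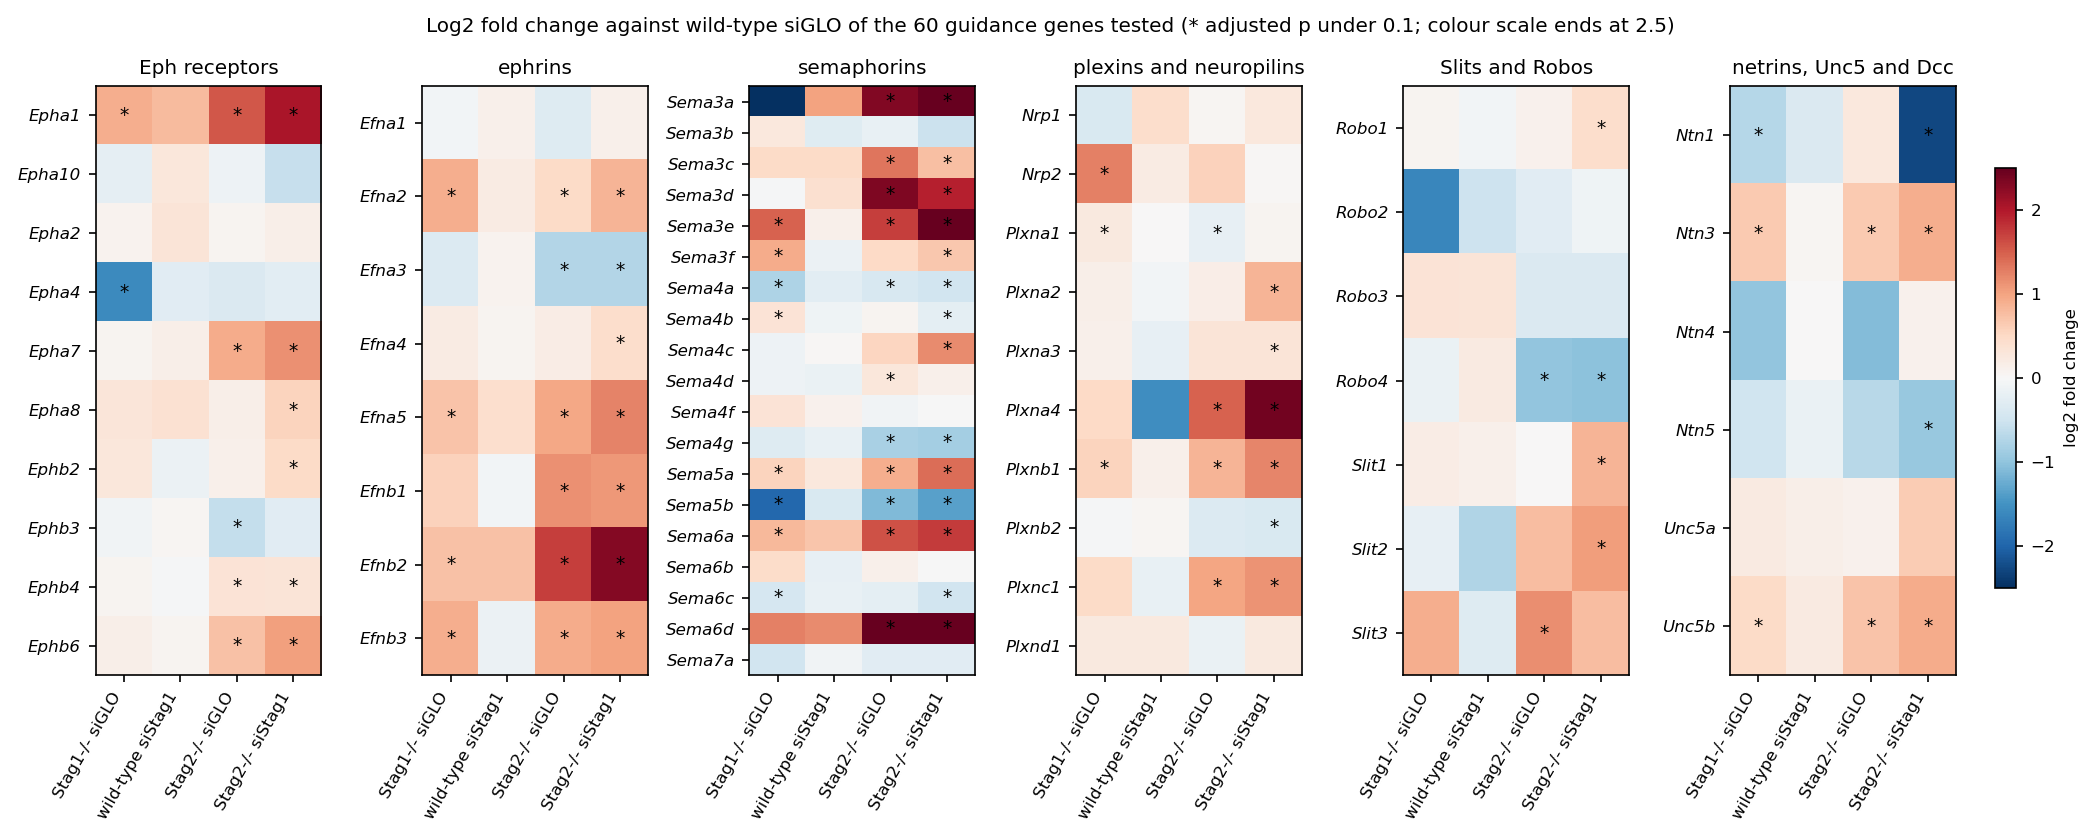
Log2 fold change against wild-type siGLO for the 60 guidance genes tested, one column per condition and one panel per family, red for higher and blue for lower, with a star for an adjusted p under 0.1. Stars number 20 in Stag1-/- siGLO, 0 in wild-type siStag1, 30 in Stag2-/- siGLO and 41 in Stag2-/- siStag1.

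The knockouts were then compared directly, to ask where the loss of one STAG protein differed from the loss of the other. Of the 60 genes, 17 were called, 4 higher in Stag1-/- siGLO and 13 higher in Stag2-/- siGLO, against 25.7% of all genes, 12.7% higher in Stag1-/- and 12.9% lower. With a mean of at least 50 normalized counts it was 4 and 10 of 47. Of all genes above that limit 26.7% were called, 13.9% higher in Stag1-/- and 12.8% lower. In this comparison same-numbered libraries deviated together, and with the replicate block 32 genes were called, 13 higher in Stag1-/- and 19 higher in Stag2-/-, against 37.3% of all genes, 18.1% higher in Stag1-/- and 19.2% lower. All 17 calls were among the 32. The block also moved the split between the directions, from 4 against 13 to 13 against 19.

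Ntn1 was 1.97-fold lower in Stag1-/- than in Stag2-/- siGLO by the ratio of means, with a log2 difference of -0.98 (SE 0.17, adjusted p = 0.000784 by edgeR). Efnb2 differed by -1.01 (SE 0.15, adjusted p = 0.000302) and Sema5b by -0.85 (SE 0.21, adjusted p = 0.0108), with no overlap between the knockouts at any of these genes. Plxnb1 differed by -0.29 (SE 0.09, adjusted p = 0.0368 by edgeR), not called without Stag2-/- replicate 2 (-0.22, adjusted p = 0.152). Sema4d differed by -0.42 (SE 0.11, adjusted p = 0.0145 by edgeR). Higher in Stag1-/- were Ephb3 by 0.51 (SE 0.14, adjusted p = 0.0168) and Plxna1 by 0.45 (SE 0.09, adjusted p = 0.00231), where every Stag1-/- library lay above every Stag2-/- one. Epha4 differed by -1.23 (SE 0.34, adjusted p = 0.0212 by edgeR), not called without Stag2-/- replicate 2 (-0.92, adjusted p = 0.108). Nrp2 differed by 0.68 (SE 0.24, adjusted p = 0.0639), not called without Stag1-/- replicate 1 or 2 (0.181 and 0.145) or Stag2-/- replicate 2 or 3 (0.151 and 0.209), while the block gave an adjusted p of 0.0024. Sema6a differed by -0.78 (SE 0.25, adjusted p = 0.0408), not called without Stag1-/- replicate 2 or Stag2-/- replicate 2 (0.152 and 0.194). Sema3e differed by -0.24 (SE 0.20, adjusted p = 0.432) and was not called, but with replicates 2 and 3 only it was (-0.39, adjusted p = 0.0798).

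The last comparisons asked what STAG1 depletion added in cells without STAG2. In Stag2-/- siStag1 against Stag2-/- siGLO 5 of the 60 genes were called, 4 higher and 1 lower, against 6.37% of all genes, 2.98% higher and 3.39% lower. With the replicate block, which applies here because same-numbered libraries deviated together, 13 were called, 10 higher and 3 lower, against 14.1% of all genes, and the 5 were among the 13. Without Stag2-/- siGLO replicate 1 or without Stag2-/- siStag1 replicate 3 the count fell to 2, and without Stag2-/- siStag1 replicate 1 it was 10.

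Of the 5 genes called without the block, Ntn1 was the one that fell, 5.86-fold by the ratio of means, with a log2 change of -2.55 (SE 0.18, adjusted p = 6.65e-07 by edgeR). With the block, where 10 rose and 3 fell, the other falls were Nrp2 (-0.56, adjusted p = 0.0339) and Sema4b (-0.31, adjusted p = 0.0153). Sema3e rose, with a log2 change of 0.91 (SE 0.20, adjusted p = 0.016), with all 3 siStag1 libraries above all 3 siGLO libraries. Efnb2 rose by 0.55 (SE 0.15, adjusted p = 0.05), and was not called without Stag2-/- siGLO replicate 1 or Stag2-/- siStag1 replicate 3 (adjusted p = 0.156 and 0.188). Plxnb1 rose by 0.38 (SE 0.09, adjusted p = 0.0268) and was not called without the same libraries (0.114 and 0.158). Plxna2 rose by 0.68 (SE 0.21, adjusted p = 0.0858 by edgeR) and was not called without them either (0.242 and 0.451), nor without Stag2-/- siGLO replicate 2 (0.178). With the block, the adjusted p of Efnb2, Plxnb1, Plxna2 and Sema3e was 0.023, 0.00836, 0.0374 and 0.0056. In a fit of only the libraries compared 1 gene, Ntn1, was called, and Sema3e had an adjusted p of 0.154.

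The siStag1 effect in Stag2-/- cells was then tested against that in wild-type cells, as an interaction in the same fit. Of the 60 genes, 1 was called and it was lower, against 0.159% of all genes, 0.0207% higher and 0.138% lower. This gene was Ntn1, with a difference of effects of -2.19 on the log2 scale (SE 0.24, adjusted p = 0.000703 by edgeR, 95% interval -2.7 to -1.69). In siStag1 against siGLO it thus fell 5.86-fold in Stag2-/- cells and had a ratio of 0.783 in wild-type cells. With each of the 12 libraries left out in turn the difference stayed called. Sema3e had a difference of effects of 0.79 (SE 0.29, adjusted p = 0.616, 95% interval 0.178 to 1.4), with a siStag1 effect in wild type of 0.12 (SE 0.21) that was -0.05 without wild-type siGLO replicate 3. For Efnb2 the difference was -0.18 (SE 0.22, adjusted p = 0.996, 95% interval -0.639 to 0.276) and for Plxnb1 0.24 (SE 0.13, adjusted p = 0.907, 95% interval -0.0322 to 0.51). Stag1 itself was reduced by 2.28 on the log2 scale in wild-type and by 1.53 in Stag2-/- cells.

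**Figure D5:**
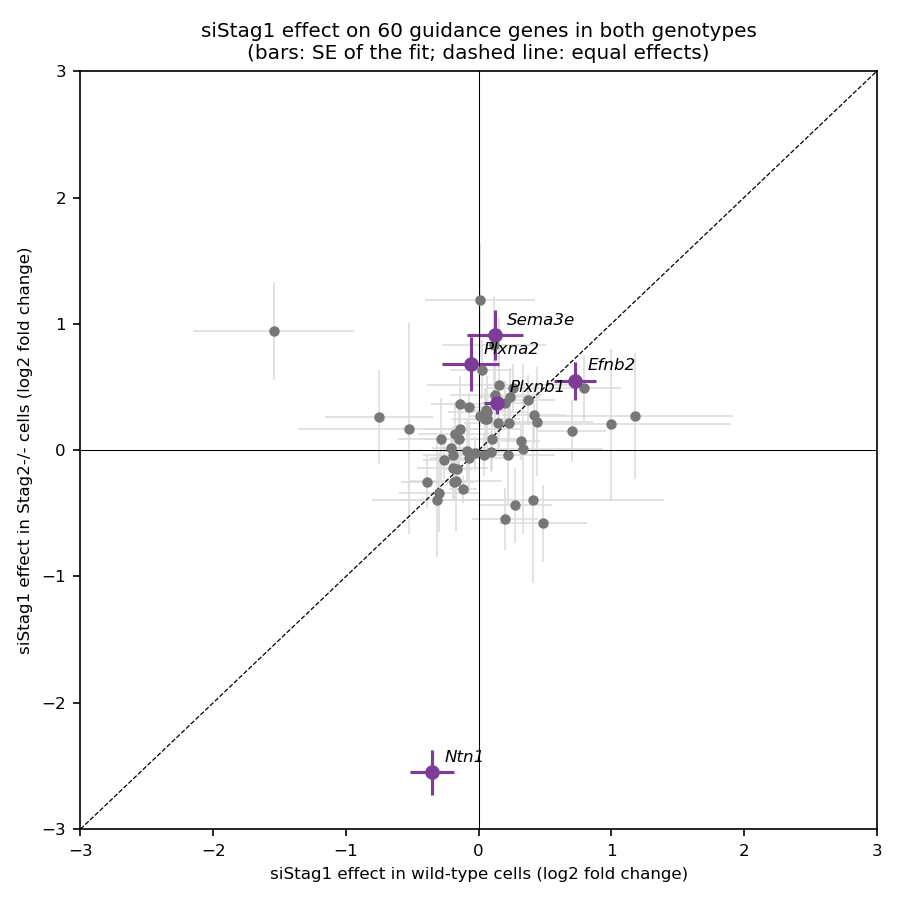
Effect of siStag1 on the 60 guidance genes tested, as log2 fold change in wild-type cells on the horizontal and in Stag2-/- cells on the vertical axis, with bars for the SE of the fit and a dashed line for equal effects. Ntn1 stands apart at -2.55 in Stag2-/- and -0.35 in wild-type cells.

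Genes that act with these ligands and receptors were described from fixed lists. Of 54 cytoplasmic effectors, such as kinases, adaptors and the collapsin response mediators, all were tested. In Stag1-/- siGLO 14 rose and 1 fell, in Stag2-/- siGLO 13 rose and 3 fell, and in Stag2-/- siStag1 23 rose and 8 fell, with median log2 fold changes of 0.155, 0.126 and 0.171. The shares called were 27.8%, 29.6% and 57.4%, against 20.0%, 28.3% and 43.9% of all genes, so that in Stag2-/- siGLO was near the background. None was called in wild-type siStag1, where 9 of the 54 had an unadjusted p under 0.05, against 6.36% of all genes. Between the knockouts 11 were higher in Stag1-/- and 6 in Stag2-/-, and 4 rose and 4 fell when siStag1 was added in Stag2-/- cells. These are 31.5% and 14.8% of the effectors, against 25.7% and 6.37% of all genes. Of 15 other surface partners tested, such as Neo1 and the Flrt genes, 1 rose and 3 fell in Stag1-/- siGLO, 1 rose and 5 fell in Stag2-/- siGLO, and 2 rose and 3 fell in Stag2-/- siStag1, which is 26.7%, 40% and 33.3% of them. Ligands and receptors among the 69 genes can be set side by side in the same way. Of 34 ligands tested, 14, 19 and 26 were called in these conditions, and of 26 receptors 6, 11 and 15. These are 41.2%, 55.9% and 76.5% of the ligands and 23.1%, 42.3% and 57.7% of the receptors, against 20.0%, 28.3% and 43.9% of all genes. Of those with a mean of at least 50 normalized counts, 13, 14 and 19 of 26 ligands were called (50.0%, 53.8% and 73.1%). For receptors above that limit it was 6, 10 and 14 of 21 (28.6%, 47.6% and 66.7%). Of all genes above it, 20.9%, 29.6% and 44.9% were called. Without the limit, the receptor share in Stag1-/- siGLO was close to the 20.0% of all genes. The difference between these shares was not tested.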

How the data were processed

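The reads, of 150 bp, were mapped by the authors with STAR (genome mm10). The deposited values are raw counts, not normalized, with a file for each library. The annotation, counting tool and strand setting are not given in the sources used here. DESeq2 is named for the authors' own tests. Counts of unmapped, multimapping (3.8 to 4.5% of the reads listed), ambiguous (1.92 to 2.08%) and unassigned (9.78 to 13%) reads were left out. No library was a copy of another of its condition.

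Genes were tested with edgeR 4.0.16 in R 4.3.3: low genes were removed with filterByExpr (at least 10 counts, and 15 in total, grouped by condition), libraries were scaled by TMM, and glmQLFit was run on all 15 libraries together, a coefficient for each condition. Contrasts were tested two-sidedly with glmQLFTest, using Benjamini-Hochberg adjustment over 14508 genes and a threshold of 0.1. The SE is the log2 fold change divided by the square root of F. Intervals use 16.2 degrees of freedom, the median of the fit. The script was tested on simulated data. Gene coordinates and exon lengths come from GENCODE M21 (mm10). Figures were drawn with matplotlib.

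The genes, the gene and marker lists and the tests were chosen with earlier results of these data known. In each comparison the genes named were, of those called with a mean of at least 50 normalized counts and no overlap between replicates, the 6 that rose most and the 6 that fell most, plus the 2 genes of each family with the most counts in wild-type siGLO. Others named (Nrp1, Plxna4, Plxnd1, Sema3a, Sema3d, Sema6d, Slit3 and the genes not tested) were chosen after their values were seen.

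The pairing of libraries comes from the replicate numbers in the labels. Over all genes tested, the deviations of same-numbered libraries from their condition means correlated above 0.1 in each of the 3 pairs for Stag1-/- against Stag2-/- siGLO (r 0.144 to 0.217) and for Stag2-/- siStag1 against Stag2-/- siGLO (0.229 to 0.577), and not in each pair elsewhere (lowest r 0.0419 against wild-type siGLO and -0.0348 among the pairs of the 4 conditions in the difference of siStag1 effects). Over the 11529 genes with a mean of at least 50 they also did so for Stag1-/- siGLO, Stag2-/- siGLO and wild-type siStag1 against wild-type siGLO (lowest r 0.261, 0.129 and 0.26). Block values are therefore given beside the counts over all guidance genes and, in the families, for some of the calls they changed. Alternatives were DESeq2 1.42.0, other scalings in edgeR (DESeq2 size factors, plain library size), other filters, the replicate block, a threshold of 0.05, fits of just the groups compared, leaving out each library, and, added after seeing the data, replicates 2 and 3 only and counts over genes with a mean of at least 50.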

Additional observations from a re-analysis of the deposited data

Results flagged for a closer look

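The siStag1 effect on Ntn1 differed between the genotypes by the interaction test of edgeR. In Stag2-/- cells Ntn1 went from 1429, 1999 and 1549 normalized counts with siGLO to 357, 266 and 227 with siStag1, and in wild-type cells from 1444, 1530 and 1151 to 1040, 1275 and 913. The difference of the log2 effects was -2.19 (SE 0.24, adjusted p = 0.000703). Every siStag1 library of Stag2-/- cells lay below every siGLO library, while the wild-type groups overlapped, with a log2 effect of -0.35 (95% interval -0.702 to -0.00487, adjusted p = 0.782). The exons of Ntn1 overlapped no other gene in GENCODE M21. After siStag1, Stag1 mRNA stood at 629 to 781 normalized counts in Stag2-/- cells and at 353 to 517.5 in wild-type cells. The part of the depletion level in the result was not tested. Of 12 pluripotent cell markers, 3 fell in the same difference of siStag1 effects (25%, against 0.159% of all genes called), and their part in the result was not tested.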

How the results depend on the processing

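Of the log2 fold changes printed, 1 changed direction: Sema3e in wild-type siStag1, which was not called, went from 0.12 to -0.053 without wild-type siGLO replicate 3 and ranged up to 0.288 with another library left out. For wild-type siStag1 the count of guidance genes called was 0, and 1 with DESeq2 size factors, with DESeq2, without a low-count filter and with replicates 2 and 3 only, 3 with only the libraries compared, and 2 with the replicate block. For Stag2-/- siGLO against wild-type siGLO it was 30, and 19 at an adjusted p under 0.05. For Stag1-/- against Stag2-/- siGLO it was 17, and 11 at an adjusted p under 0.05, 32 with the replicate block and 26 with replicates 2 and 3 only. For Stag2-/- siStag1 against Stag2-/- siGLO it was 5, and 8 with DESeq2, 1 with only the libraries compared, 13 with the replicate block and 9 with replicates 2 and 3 only. The block raised the share of all genes called as well. It went from 0.248% to 1.63% in wild-type siStag1 and from 25.7% to 37.3% between the knockouts. For siStag1 in Stag2-/- cells it went from 6.37% to 14.1%. For the other settings, single libraries left out included, the share of all genes called is not given here. Whether the guidance genes moved apart from all genes there cannot be told, and the cause of these shifts was not tested. Leaving out single libraries gave 13 to 18 calls for Stag1-/- siGLO, 18 to 29 for Stag2-/- siGLO, 32 to 41 for Stag2-/- siStag1, 0 to 0 for wild-type siStag1, 12 to 21 between the knockouts and 2 to 10 for siStag1 in Stag2-/- cells, and stayed at 1 for the difference of siStag1 effects. Ntn1 in Stag2-/- siGLO was called with the replicate block (0.27, adjusted p = 0.0813) and with replicates 2 and 3 only (0.39, adjusted p = 0.0975). Leaving out 1 library kept 496 of 606 such values on their side of the threshold, and 108 calls were lost. Guidance genes with few counts, such as Sema3a, rest on few reads.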
